A study of Homo sapiens with 8 samples.

Results

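The replicative DNA polymerases and primase copy the chromosomes in S phase, and this account follows the transcripts of 10 of their subunit genes out of 60230 genes listed in the count table. The genes were chosen by name as the subunits of polymerase alpha-primase (POLA1, POLA2, PRIM1, PRIM2), of polymerase delta (POLD1, POLD2, POLD3, POLD4) and of polymerase epsilon (POLE, POLE2). The choice was made with the comparisons against DMSO already known, so the differences from DMSO, and the calls counted among them, are a description from which nothing is read. Only the differences between compounds serve as tests. All 10 genes passed the filter on low counts.

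The samples were HepG2 cells, an established human line of liver tumour origin, made to overexpress CYP3A4 and kept under blasticidin. CYP3A4 is a cytochrome P450 of drug and xenobiotic metabolism. The transgene was carried by all groups, the control included. Cells were seeded 24 h before treatment and then exposed for 24 h to compound 4, compound 5 or compound 6, each at its own IC50, or to 0.2% DMSO, with 2 replicates per group labelled day 1 and day 2, 8 samples in all. The IC50 came from a separate viability assay with a longer exposure. The concentrations differed between compounds, and doses were not matched. All 3 are bisphenol-type antioxidants used in plastics. In compound 4, a methylene group joins rings that bear tert-butyl and methyl groups, compound 6 has cyclohexyl in place of the tert-butyl groups, and compound 5 has an ethane bridge between rings with a pair of tert-butyl groups each. The labels mark the day 1 samples of compounds 4 and 5 as each merged from 2 numbered entries, of the kind that every other sample has 1 of. No label says that the replicates were separate cultures beyond the day, so the errors below measure the spread between these samples, which may be technical.

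The libraries held 9472261 to 13308975 estimated counts. Levels are given in CPM, counts scaled to the size of the library, after adjustment by TMM, which corrects for library composition. The 8 hepatocyte lineage markers were all detected, with summed levels of 34100 to 35600 CPM in DMSO, 27000 to 27400 under compound 4, 28400 to 29100 under compound 5, and 28000 to 33700 under compound 6. PTPRC and CD3E of leukocytes, COL1A2 and DCN of fibroblasts and KDR of endothelial cells were at 0 in all libraries. Among the hepatocyte markers, AFP was called lower with compounds 4 and 5 and APOA1 with all 3 compounds, and TTR was called higher with compound 4. The summed level of 4 leukocyte markers was 2.12 to 4.59 CPM over all libraries, and that of 4 fibroblast markers was 1.64 to 2.66 in DMSO, 6.32 to 8.64 for compound 4, 2.67 to 4.58 for compound 5 and 3.86 to 5.43 for compound 6. That of 4 endothelial markers, none high enough to be tested, was 0.904 to 1.28 CPM in DMSO, 1.56 to 1.62 for compound 4, 0.864 to 1.28 for compound 5 and 1.88 to 2.06 for compound 6. CD14 was called higher with compounds 4 and 6 and PDGFRB with compound 4. The part of all these markers in the results below was not tested. CYP3A4 lay at 198 and 207 CPM in DMSO, 287 and 216 under compound 4, 371 and 421 under compound 5, and 170 and 171 under compound 6. In RNA from bulk cultures, fewer cells in S phase and less of a transcript per cell cannot be told apart.

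As background, polymerase alpha-primase starts each new strand: PRIM1 is the catalytic subunit of primase, PRIM2 its large regulatory subunit, POLA1 the catalytic subunit that extends the RNA primer with DNA, and POLA2 the accessory B subunit. Polymerase epsilon, with the catalytic subunit POLE and the B subunit POLE2, copies most of the leading strand. Polymerase delta copies the lagging strand, with POLD1 as the catalytic subunit and POLD2 as the B subunit. Its POLD3 is a subunit that binds the sliding clamp, and its POLD4 is a small accessory subunit. The POLD4 protein is known to be removed by a ubiquitin ligase after DNA damage and in S phase, which leaves a polymerase delta without it. Many replication genes are known targets of E2F transcription factors, which act at the entry into S phase.

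The promoters of 5 subunits are shown because 4 of them hold an E2F word and the fifth is that of POLD4, the subunit that rose. Each is a RefSeq window of 300 bases on GRCh38.p14, from 250 bases before to 50 after the annotated start, read along the gene's own strand. Capitals mark E2F words (TTTCCCGC, TTTGGCGC, TTTCGCGC or TTTGCCGC) and the NF-Y word CCAAT, searched on both strands, so that ATTGG is CCAAT on the other strand. No E2F word overlapped an NF-Y word in these windows.
POLA1, chrX:24693668-24693967, plus strand: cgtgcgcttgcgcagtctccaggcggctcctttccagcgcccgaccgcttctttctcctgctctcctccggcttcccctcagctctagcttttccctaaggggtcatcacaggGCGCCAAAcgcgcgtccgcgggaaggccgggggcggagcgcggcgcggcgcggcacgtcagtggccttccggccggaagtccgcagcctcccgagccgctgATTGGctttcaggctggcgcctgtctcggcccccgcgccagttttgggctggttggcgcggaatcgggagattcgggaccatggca
POLA2, chr11:65261712-65262011, plus strand: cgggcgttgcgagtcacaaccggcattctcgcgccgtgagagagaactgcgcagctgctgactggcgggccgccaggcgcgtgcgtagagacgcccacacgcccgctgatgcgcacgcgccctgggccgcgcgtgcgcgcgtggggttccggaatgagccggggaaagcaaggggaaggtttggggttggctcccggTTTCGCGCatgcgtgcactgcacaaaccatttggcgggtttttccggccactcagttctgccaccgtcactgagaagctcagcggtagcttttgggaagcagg
POLE, chr12:132687293-132687592, minus strand: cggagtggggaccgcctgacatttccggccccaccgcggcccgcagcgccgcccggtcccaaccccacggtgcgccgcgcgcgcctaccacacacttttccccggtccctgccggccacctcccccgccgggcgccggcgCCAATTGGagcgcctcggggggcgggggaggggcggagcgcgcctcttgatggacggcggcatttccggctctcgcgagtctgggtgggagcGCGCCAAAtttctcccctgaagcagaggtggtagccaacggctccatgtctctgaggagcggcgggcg
POLE2, chr14:49688165-49688464, minus strand: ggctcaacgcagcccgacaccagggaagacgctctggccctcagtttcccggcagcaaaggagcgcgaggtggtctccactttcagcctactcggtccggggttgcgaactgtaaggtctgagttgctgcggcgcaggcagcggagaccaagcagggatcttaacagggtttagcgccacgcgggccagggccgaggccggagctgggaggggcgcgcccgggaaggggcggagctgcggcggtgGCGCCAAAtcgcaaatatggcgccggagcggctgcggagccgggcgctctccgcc
POLD4, chr11:67353547-67353846, minus strand: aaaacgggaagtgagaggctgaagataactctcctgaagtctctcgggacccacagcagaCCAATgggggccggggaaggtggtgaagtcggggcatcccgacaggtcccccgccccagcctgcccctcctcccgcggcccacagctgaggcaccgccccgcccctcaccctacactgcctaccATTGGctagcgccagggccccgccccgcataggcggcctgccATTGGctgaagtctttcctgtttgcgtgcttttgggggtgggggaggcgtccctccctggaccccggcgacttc
Windows were found for 9 of the 10 genes, 12 windows in all. An E2F word was present in 4 of the 9 genes, the first 4 shown, or 4 of the 12 windows, against 3.31% of 35116 RefSeq promoter windows, and none stood in the window of POLD4. The word CCAAT was present in 5 of 9 genes (POLA1, PRIM1, POLD2, POLD4 and POLE), or 6 of the 12 windows, against 34.6% of all windows, and POLD4 held 3 copies in the window shown. Bases G and C made up 38.3% to 74.7% of the 12 windows and 66% to 73.7% of the 5 shown, beside a median of 58.7% over all windows. These matches describe the letters of the windows and do not show binding.

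All 4 transcripts of polymerase alpha-primase lay below both DMSO libraries in every treated library. Differences between the 4 in the size of the change were not tested. POLA1 (ENSG00000101868, chrX:24693919-24996986, plus strand, GRCh38) lay at 43.7 and 57.2 CPM in DMSO, 27 and 21.7 under compound 4, 31.8 and 38.5 under compound 5, and 37.7 and 30.3 under compound 6. The DMSO libraries were the highest of the 8. Its log2 fold change against DMSO was -1.05 (SE 0.18) under compound 4, -0.52 (SE 0.17) under compound 5, and -0.57 (SE 0.18) under compound 6. POLA2 (ENSG00000014138, chr11:65261762-65305589, plus strand) was at 23.1 and 21.1 CPM in DMSO, 13.3 and 12.8 under compound 4, 8.98 and 10.3 under compound 5, and 20.6 and 11.5 under compound 6. The pair of compound 6 libraries stood far apart, one close to DMSO and one close to compound 4. The log2 fold change of POLA2 was -0.76 (SE 0.22), -1.19 (SE 0.23) and -0.47 (SE 0.22) for compounds 4, 5 and 6.

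The primase subunits PRIM1 and PRIM2 thus lay below DMSO with every compound, and their means ranked the compounds differently. PRIM1 (ENSG00000198056, chr12:56731596-56752373, minus strand) was at 26.7 and 24.6 CPM in DMSO, 14.9 and 16.5 under compound 4, 12.9 and 11.9 under compound 5, and 23 and 18.2 under compound 6. PRIM2 (ENSG00000146143, chr6:57314805-57646849, plus strand) was at 26.4 and 26 CPM in DMSO, 15 and 17.2 under compound 4, 18.5 and 22 under compound 5, and 22.2 and 15.6 under compound 6. Of the 3 compounds, compound 5 had the lowest mean of PRIM1, 12.4 CPM, and the highest mean of PRIM2, 20.2 CPM. The log2 fold changes of PRIM1 were -0.70 (SE 0.15), -1.05 (SE 0.15) and -0.32 (SE 0.15), and those of PRIM2 were -0.70 (SE 0.18), -0.37 (SE 0.17) and -0.48 (SE 0.18), for compounds 4, 5 and 6.

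Within polymerase delta, the 3 larger subunits lay below DMSO with every compound and POLD4 lay above it. POLD1 (ENSG00000062822, chr19:50384204-50418016, plus strand) was at 74.2 and 83.7 CPM in DMSO, 62.1 and 70.9 under compound 4, 52.4 and 63.9 under compound 5, and 61.4 and 59 under compound 6. POLD2 (ENSG00000106628, chr7:44114681-44124358, minus strand) was at 145 and 129 CPM in DMSO, 105 and 125 under compound 4, 91.8 and 101 under compound 5, and 127 and 108 under compound 6. The treated library nearest to DMSO was one of compound 4 for POLD1 (70.9 CPM) and one of compound 6 for POLD2 (127 CPM). POLD3 (ENSG00000077514, chr11:74493851-74669117, plus strand) was at 27.4 and 26.2 CPM in DMSO, 16.7 and 12.7 under compound 4, 14.4 and 11.3 under compound 5, and 21 and 13.5 under compound 6. By the group estimates, POLD3 lay farthest below DMSO of the 3. Its log2 fold changes were -0.87, -1.06 and -0.65 (SE 0.21 each) for compounds 4, 5 and 6. Those of POLD1 were -0.25, -0.44 and -0.39 (SE 0.13 each) and those of POLD2 -0.26, -0.51 and -0.22 (SE 0.13 each). In the day 1 library of compound 6, however, POLD3 was at -0.35 and POLD1 at -0.36 from the DMSO mean on the log2 scale.

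POLD4 (ENSG00000175482, chr11:67350777-67356972, minus strand) was at 8.96 and 7.56 CPM in DMSO, 17.4 and 16.9 under compound 4, 12.8 and 14.1 under compound 5, and 12.9 and 21.8 under compound 6. All 6 treated libraries were above both DMSO libraries. The counts behind these levels were 91 and 92 in DMSO and 124 to 265 with the compounds. The log2 fold changes were 1.06, 0.71 and 1.09 (SE 0.23 each) for compounds 4, 5 and 6. POLD4 was called higher with each compound, but with no compound when either DMSO library was left out (0.94 to 1.18 with compound 4), not with compound 5 when either of its libraries was left out, and not with compound 6 without its day 2 library (0.66). These calls rest on the contrasts that were known when the genes were chosen. POLD4 was also not called with compounds 5 and 6 when its counts were summed with those of the overlapping gene AP003419.1, as described below.

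Both subunits of polymerase epsilon lay below DMSO in all 6 treated libraries. POLE (ENSG00000177084, chr12:132623753-132687365, minus strand) was at 82.9 and 97.2 CPM in DMSO, 68.9 and 51.5 under compound 4, 76.8 and 77.6 under compound 5, and 67.8 and 73.3 under compound 6. POLE2 (ENSG00000100479, chr14:49643555-49688422, minus strand) was at 13.2 CPM in both DMSO libraries, 9.41 and 9.59 under compound 4, 5.5 and 8.87 under compound 5, and 11.3 and 8.4 under compound 6. With compound 5, POLE2 was the lower of the 2 relative to DMSO in both libraries. The log2 fold changes of POLE were -0.58, -0.22 and -0.35 (SE 0.14 each) and those of POLE2 were -0.47, -0.86 and -0.43 (SE 0.22 each) for compounds 4, 5 and 6. Of the other subunits of this enzyme, POLE3 had values of -0.48, -0.52 and -0.45 (SE 0.14 each), the last not called. POLE4 had values of 0.13, -0.36 and -0.19 (SE 0.16 each) and was called with no compound.

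Counted over the 10 genes, both libraries lay below both DMSO libraries for 9 and above them for 1, POLD4, with each compound. Over all 13404 genes tested, 27.1%, 37.3% and 26.6% lay below and 27.5%, 32.9% and 26.3% lay above with compounds 4, 5 and 6. At an adjusted p of 0.05 in edgeR's quasi-likelihood test, 5 subunits were lower with compound 4 (POLA1, PRIM1, PRIM2, POLD3, POLE), 7 with compound 5 (POLA1, POLA2, PRIM1, POLD1, POLD2, POLD3, POLE2) and 0 with compound 6, and POLD4 was higher with all 3. The share of all genes called lower was 5.42%, 14.2% and 1.6%, and the share called higher was 6.5%, 13.9% and 2.8%. Nothing is read from these counts, since the same contrasts were in view when the genes were chosen. With the day as a block, POLA1 was not called with compound 5, and POLD3 was called lower with compound 6. The POLA1 call with compound 5 was also lost under RLE scaling, an alternative to TMM, and in DESeq2. The median over the 10 genes was -0.64, -0.52 and -0.41, against 0, -0.03 and 0.00 over all genes tested. Without the day 2 library of compound 6 its median was -0.22.

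**Figure D1:**
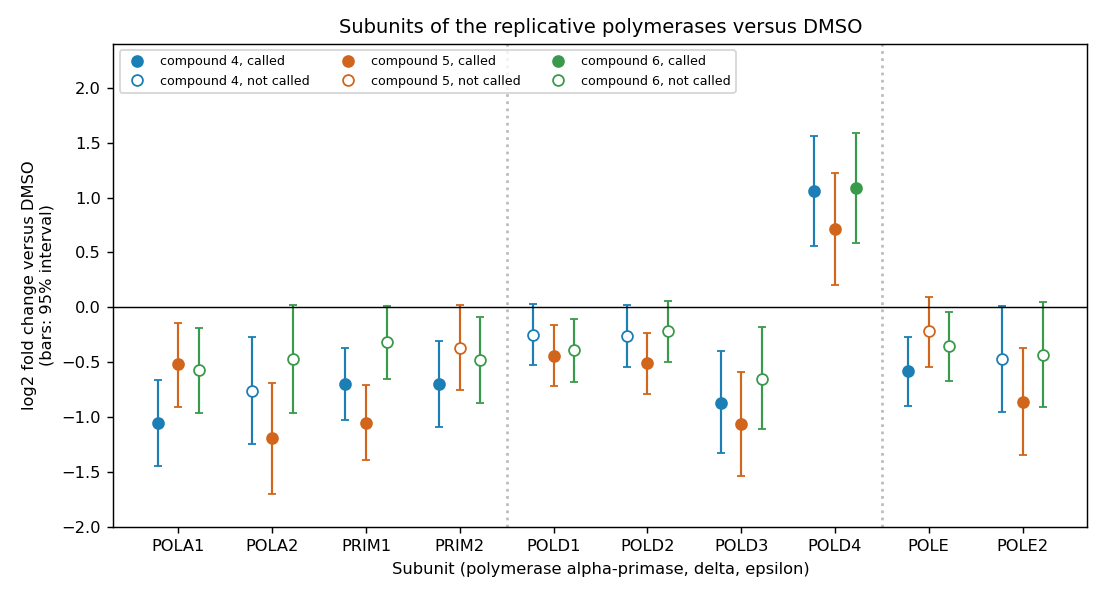
Log2 fold change against DMSO (vertical axis) for each subunit (horizontal axis) and compound, with 95% intervals from edgeR, filled, as a description, where the adjusted p was under 0.05 and open otherwise. POLD4 is at 1.06, 0.71 and 1.09 for compounds 4, 5 and 6, and the other 9 subunits are between -1.19 and -0.22.

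Without the day 1 library of compound 6, 3 subunits were called lower with that compound (POLA2, PRIM2 and POLD3), and without the day 2 library 0 were. Over all genes, 1001 and 49 of 13404 were called in these fits, against 590 with both libraries. The 2 compound 6 libraries differed more in these genes than the pair of any other group, with a median absolute log2 difference of 0.38 against 0.15 in DMSO, 0.20 with compound 4 and 0.22 with compound 5. From day 1 to day 2, 8 of the 10 genes were lower, with a median log2 difference of -0.33, while POLD4 was 0.76 higher. The median absolute difference over 9315 genes was 0.14 in the same pair, and 0.12, 0.18 and 0.11 in DMSO and with compounds 4 and 5. Leaving out the day 1 or the day 2 DMSO library left 1 or 0 subunits called with compound 4, and the genes called over the whole table went from 1598 to 663 or 335. With compound 5 either left 4 subunits, and the genes called went from 3763 to 1685 or 2007. Leaving out the day 1 library of compound 5 left 3 subunits and 1680 genes.

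The ratios within an enzyme do not depend on how libraries are scaled. They are given as log2 ratios of CPM with the DMSO mean set to 0. POLD4 against the mean of POLD1, POLD2 and POLD3 was 0.11 and -0.11 in DMSO, 1.55 and 1.49 under compound 4, 1.33 and 1.44 under compound 5, and 0.92 and 1.99 under compound 6. The 3 compounds gave means of 1.52 ± 0.04, 1.39 ± 0.08 and 1.46 ± 0.75 (SD, n = 2), with overlapping ranges between compound 6 and each of the others. In all 6 treated libraries this ratio lay above both DMSO libraries. Nothing is read from this, since POLD4 was chosen with the comparisons against DMSO already known. An exact permutation test of 2 against 2 libraries cannot go below 0.333, so none was run on these ratios.

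The means of the other ratios lay farthest from DMSO with compound 5, and their differences between compounds were not tested. POLA2 against POLA1 was 0.26 and -0.26 in DMSO, 0.16 and 0.42 under compound 4, -0.65 and -0.73 under compound 5, and 0.31 and -0.22 under compound 6. PRIM1 against PRIM2 was 0.05 and -0.05 in DMSO, 0.02 and -0.03 under compound 4, -0.49 and -0.86 under compound 5, and 0.09 and 0.26 under compound 6. POLE against POLE2 was -0.12 and 0.12 in DMSO, 0.10 and -0.35 under compound 4, 1.03 and 0.36 under compound 5, and -0.18 and 0.36 under compound 6. Both compound 5 libraries lay outside the range of the other 6 for the alpha and the primase pair, but not for the epsilon pair, where one compound 5 library equalled a compound 6 library at 0.36.

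**Figure D2:**
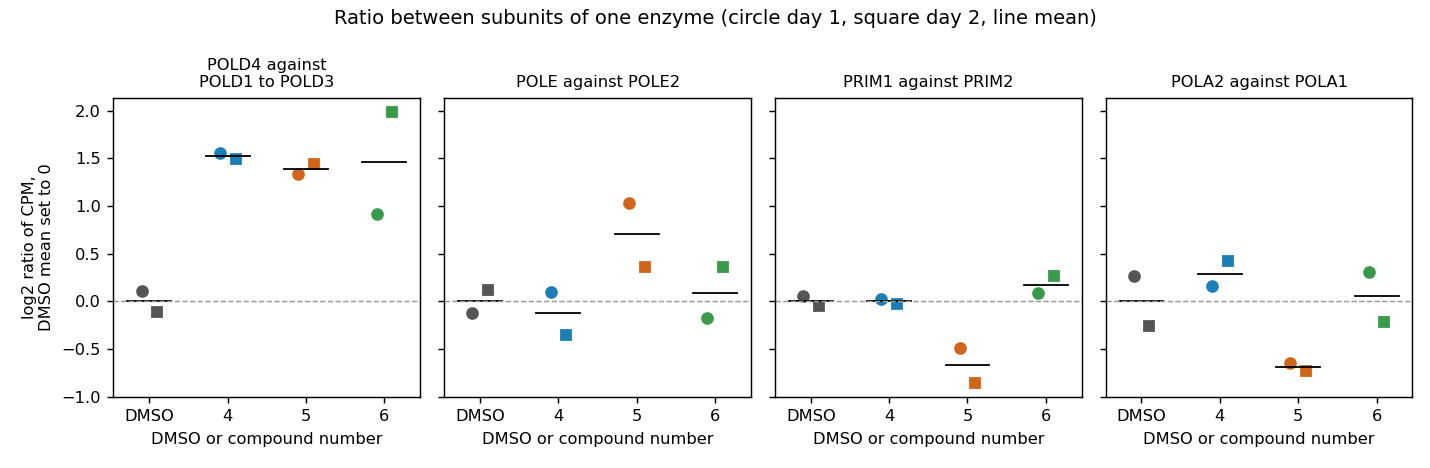
Log2 ratio of CPM between subunits of one enzyme (vertical axis, DMSO mean set to 0) for DMSO and each compound, with a circle for day 1, a square for day 2 and a line at the mean of 2. The POLD4 ratio is between 0.92 and 1.99 in the 6 treated libraries, and the primase and alpha ratios are lowest with compound 5, at -0.86 to -0.49.

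The comparisons between compounds covered 3 pairs and 10 genes, 30 tests, each adjusted over all 13404 genes of its pair. PRIM1 was the one call: it was lower with compound 5 than with compound 6 by a log2 difference of -0.73 (SE 0.16, 95% interval -1.07 to -0.39, edgeR adjusted p = 0.0174). Both compound 5 libraries were below both compound 6 libraries, 12.9 and 11.9 against 23 and 18.2 CPM. The share of all genes called lower in that pair was 5.16%. The call was lost without either compound 5 library or without the day 1 library of compound 6. In those fits fewer genes were called over the whole table too. The PRIM1 difference was -0.56 to -0.88 over all single libraries left out. POLA2 had a similar difference of -0.72 (SE 0.24, 95% interval -1.24 to -0.20) that was not called (edgeR adjusted p = 0.0786). It was -0.26 without the day 1 library of compound 6, and -1.08 and called without the day 2 library. It was also called with no filter on low counts.

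Compounds 5 and 4, which differ in the bridge and in the ring substituents, gave 0 calls among the 10 genes in edgeR, against 13.9% of all genes. At an unadjusted p under 0.05, POLA1 and POLE were both higher with compound 5, by 0.53 (95% interval 0.14 to 0.93) and 0.36 (95% interval 0.04 to 0.68). Their edgeR adjusted p values were 0.0707 and 0.113, and DESeq2 called POLA1. Without the day 1 library of compound 4 both were called, at 0.70 and 0.58, and without its day 2 library they were 0.39 and 0.17 and not called. Both were also called with no filter. For POLD4 the difference was -0.35 (95% interval -0.82 to 0.12).

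Compounds 4 and 6, which differ in tert-butyl against cyclohexyl groups, gave 0 calls in edgeR and in DESeq2, against 0.0448% of all genes in edgeR. At an unadjusted p under 0.05, POLA1 was lower with compound 4 by -0.48 (95% interval -0.88 to -0.08) and PRIM1 by -0.39 (95% interval -0.72 to -0.05), with edgeR adjusted p values of 0.457 and 0.463. For POLD4 the difference was -0.03 (95% interval -0.49 to 0.44). Intervals of this width do not show that the compounds act alike.

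Levels between genes can be compared only per length of transcript, and the order depended on which length was taken. Per kilobase of the median protein-coding transcript, POLD2 had the highest DMSO level, 161 ± 12.9 CPM per kb (SD, n = 2), followed by POLD1 at 71.3 ± 6.03. POLE2 was the lowest at 7.84 ± 0.02, with POLD4 at 9.17 ± 1.10 and POLA1 at 9.28 ± 1.75, and the last 2 did not differ beyond their spread. Per kilobase of the longest transcript, POLD2 at 63.6 ± 5.10 and POLD1 at 22.4 ± 1.9 kept the first places, and POLD4 was lowest at 5.56 ± 0.67, with POLA2 at 5.91 ± 0.38, within the spread of both. By the same measure, POLD4 reached 11.6 ± 0.25 under compound 4, 9.07 ± 0.62 under compound 5, and 11.7 ± 4.23 under compound 6.

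Some reads of the subunits could belong to more than 1 gene, and 4 subunits shared more than 10% of their sequence words. In GENCODE 29 transcripts on GRCh38, each word of 31 bases was looked up in the transcripts of all other genes, wherever they lie. The words found there made up 37.2% of those of POLA2, 30.0% of POLD4, 22.6% of PRIM2 and 16.5% of PRIM1, and at most 8.25% of any other subunit. POLD4 shared 19.2% with AP003419.1 (ENSG00000256514), an annotated protein-coding gene that overlaps it. POLA2 shared 34.5% with AP000944.2 and PRIM1 shared 13% with AC117378.1, which overlap them in the same way. PRIM2 shared 18.0% with the pseudogene AC244258.1 and 12.1% with the pseudogene ABBA01000935.2, both with 0 counts in all libraries. How the estimated counts divided these reads was not tested.

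AP003419.1 itself was at 6.5 and 3.37 CPM in DMSO, 7.7 and 6.4 under compound 4, 2.38 and 5.26 under compound 5, and 6.05 and 4.78 under compound 6. In an alternative chosen after the data were seen, the counts of POLA2, POLD4 and PRIM1 were summed with those of an overlapping gene. It was the gene on the same strand that shared over 10% of the subunit's words. Other genes that overlap a subunit on its strand were not summed. POLD4 and AP003419.1 together lay at 15.5 and 10.9 CPM in DMSO, 25.1 and 23.3 under compound 4, 15.2 and 19.4 under compound 5, and 19 and 26.6 under compound 6. The sum was above DMSO in both libraries with compounds 4 and 6 and overlapped DMSO with compound 5. Its log2 fold changes were 0.88, 0.40 and 0.80 (SE 0.21 each), called with compound 4 and not with compounds 5 and 6. The sum for POLA2 had values of -0.79, -1.37 and -0.36 and that for PRIM1 of -0.75, -1.06 and -0.39 with compounds 4, 5 and 6. In this fit POLA2 was also called lower with compound 4, and lower with compound 5 than with compound 6.

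The rest of the replication machinery was followed in lists of genes, counted at an adjusted p of 0.05 in edgeR, beside the shares of all genes given above. Of 12 genes of the replicative helicase and its assembly, the MCM and GINS genes among them, 9 were lower under compound 4, 11 under compound 5, and 2 under compound 6, and none was higher. GINS2, a GINS subunit, fell by 0.92 and 1.13 on the log2 scale with compounds 4 and 5 (SE 0.21 and 0.22), and its value with compound 6 was -0.74 and not called (SE 0.21). MCM4, a helicase subunit, fell by 0.75, 0.85 and 0.67 with compounds 4, 5 and 6 (SE 0.12 each). The medians of the list were -0.67, -0.82 and -0.53, beside -0.70, -0.52 and -0.43 for the 9 polymerase subunits other than POLD4. Of 10 genes of the sliding clamp and its loaders, 6, 6 and 0 were lower. PCNA, the clamp on which polymerases delta and epsilon run, fell by 0.67 with compound 4 and 1.09 with compound 5, and its value with compound 6 was -0.68 and not called (SE 0.18 each, edgeR adjusted p = 0.0569 for the last). Of 10 genes of primer removal, ligation and single-strand binding, 4, 9 and 2 were lower, with LIG1, the ligase of lagging-strand fragments, called with all 3 compounds (-0.85, -0.83 and -0.62, SE 0.15 each). Between compounds, the calls in these 3 lists were CHTF8, a subunit of an alternative clamp loader, lower with compound 5 than with compound 4 (-0.47, SE 0.13) or compound 6 (-0.71, SE 0.13), and RPA3, the smallest subunit of the single-strand binding protein RPA, lower with compound 5 than with compound 4 (-0.56, SE 0.16).

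Of 16 genes of repair, bypass and mitochondrial polymerases, 14 were tested, and 1, 4 and 0 were lower with compounds 4, 5 and 6, with list medians of -0.05, -0.08 and 0.06. The genes called lower were POLQ, the polymerase of end joining by short homologies, which fell by 1.00 with compound 4 (SE 0.20) and 0.62 with compound 5 (SE 0.19) and was at -0.47 with compound 6, not called (SE 0.19), and POLH, POLI and PRIMPOL with compound 5. POLH, which copies past ultraviolet damage, was also lower with compound 5 than with compound 4 (-0.75, SE 0.18) or compound 6 (-0.80, SE 0.18).

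Like POLD4, one gene of the CST complex, a partner of polymerase alpha at telomeres, was higher with all 3 compounds. CTC1 rose by 0.74, 0.55 and 0.69 (SE 0.15 each), while STN1 was called against DMSO with none and was lower with compound 5 than with compound 4 (-0.76, SE 0.18) or compound 6 (-0.89, SE 0.18). Of 5 genes of the ubiquitin ligase that removes the POLD4 protein, DTL, its substrate receptor, fell by 0.78 with compound 4 and 0.72 with compound 5 and was at -0.50 with compound 6, not called (SE 0.20 each), and DDB1, its adaptor, rose by 0.28 with compound 5 (SE 0.10). Of 10 E2F factors and partners, 3, 6 and 1 were lower. E2F7, a repressor of the family, fell by 1.55, 1.40 and 1.01 with compounds 4, 5 and 6 (SE 0.24, 0.24 and 0.23). The protein of none of these genes was measured.

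The genes with the closest profiles were found over the 8 libraries by the root mean square difference of log2 CPM from the DMSO mean, among 9306 genes, with 0.5 CPM added. The 3 nearest to POLD4 were RAP1GAP (0.162), an activator of Rap GTP hydrolysis, FNDC4 (0.163), a fibronectin-domain protein, and MICAL1 (0.173), an enzyme that oxidises actin. The median over all genes compared was 0.819, and the nearest genes lie below it by construction.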

How the data were processed

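RNA was sequenced from 8 samples of CYP3A4-overexpressing HepG2 cells, 2 each for DMSO and compounds 4, 5 and 6. The authors deposited estimated counts per gene, in whole numbers, made from stranded paired-end mRNA reads checked with FastQC 0.12.0, quantified with Salmon 1.5.0 on GENCODE 38 transcripts (GRCh38) and summed to genes with tximeta, and they used DESeq2 1.38.3. Salmon divides reads that fit several transcripts, so overlapping genes can take counts from each other. The release behind the index is from the study's methods, the tool versions from the submitters' processing notes.

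The analysis used edgeR 4.0.16 under R 4.3.3 (filterByExpr, TMM, quasi-likelihood test, all 8 samples in the fit) and Benjamini-Hochberg adjustment over 13404 genes, with a gene called at an adjusted p under 0.05. Libraries held 9472261 to 13308975 counts. The floor of 3 counts equals 0.234 to 0.313 CPM and covers counting error only. Names were matched to 41718 of 60230 identifiers. DESeq2 1.42.0, 3 other scalings, 2 other filters, a day block, fits of only the groups compared, a cutoff of 0.01 and leaving out each library were alternatives. The scripts were tested on simulated data. Of the changed genes, edgeR recovered 91% and DESeq2 88.4% on average. Among the genes called, 7.69% were false with edgeR and 8.7% with DESeq2, more than the cutoff of 0.05 allows for. The labels give the replicates as day 1 and day 2. This was taken as a day shared between groups, though no source used here says what the day means. Deviations of same-day samples from their group means correlated between -0.0826 and 0.16 over 13404 genes in the 6 pairs of groups, above 0.1 in 1 of them, so the values do not show the pairing.

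The members and gene lists were chosen with earlier results of these data known. Beyond the 10 members, genes were named where they were called in a listed group, shared over 10% of a member's words of 31 bases, or were among the 3 nearest profiles. The nearest profiles to the mean of the other 9 members are not reported here. Promoters are RefSeq windows on GRCh38.p14 and coordinates are from GENCODE 29 on GRCh38.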

Additional observations from a re-analysis of the deposited data

How the results depend on the processing

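Differences from DMSO kept their direction for all 10 subunits in the 9 alternative fits with all libraries and in all 8 fits that left one out. The numbers of subunits called were 6, 8 and 1 with compounds 4, 5 and 6. They were 1, 3 and 0 at a cutoff of 0.01, where 591, 1809 and 92 of all genes were called against 1598, 3763 and 590. They were 3 with compound 6 with no filter, 2 with compound 6 with the replicate block, and 0 with compound 6 after summing with overlapping genes. With compound 4, POLA2 was also called under upper-quartile scaling, library size alone, no filter, at least 10 counts in every sample, only the 2 groups compared and summing, and POLE was not called with only the 2 groups compared. The replicate block changed no other call among the subunits than POLA1 with compound 5 and POLD3 with compound 6. POLA1 with compound 5 was also not called under RLE scaling or by DESeq2. Between compounds 5 and 4, 1 was called by DESeq2 and 2 with no filter. Between compounds 5 and 6, 2 were called with no filter or after summing, and 0 at a cutoff of 0.01. Without single libraries the numbers ranged from 0 to 7, 3 to 8 and 0 to 4 with compounds 4, 5 and 6, and from 0 to 2 between compounds 5 and 4 and between 5 and 6.

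The median with compound 4 was -0.68 with library size alone, and -0.67 to -0.57 without single libraries. Without single libraries it was -0.63 to -0.39 with compound 5 (main value -0.52) and -0.54 to -0.22 with compound 6 (main value -0.41), the last without the day 2 library of compound 6. POLD4 against the other delta subunits was 1.34 and 1.07 with compounds 4 and 5 after summing. POLD4 was not called with compound 5 under upper-quartile scaling or library size alone. The cause of these changes was not tested, except that a stricter cutoff calls fewer genes by construction.

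Uncalled differences between compounds reversed in sign. POLA1 between compounds 5 and 6 was -0.03 under upper-quartile scaling and library size alone, and POLD4 between compounds 4 and 6 was 0.08 after summing. Without single libraries, differences between compounds 5 and 6 ranged over -0.09 to 0.21 for POLA1, -0.11 to 0.38 for PRIM2, -0.20 to 0.10 for POLD1 and -0.69 to 0.08 for POLD4. Between compounds 4 and 6 the ranges were -0.66 to 0.16 for POLA2, -0.46 to 0.03 for PRIM2, -0.17 to 0.08 for POLD2, -0.51 to 0.10 for POLD3, -0.36 to 0.41 for POLD4 and -0.25 to 0.16 for POLE2. For POLD3 between compounds 5 and 4 it was -0.37 to 0.01.

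Over all genes, the share of higher calls with compound 5 was 49.3%, 53.1% under RLE scaling, 59.2% by DESeq2, 36.6% under upper-quartile scaling and 33.3% with library size alone. The number of genes called with compound 6 was 590, and 1441 with no filter and 92 at a cutoff of 0.01. Without single libraries it was 1 and 90 (DMSO day 2 and day 1), 49 and 1001 (compound 6 day 2 and day 1), 1090 and 1096 (compound 4 day 1 and day 2) and 350 and 371 (compound 5 day 1 and day 2).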
